A study of Mus musculus with 64 samples.

Results

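The genes described here encode the mouse machinery that writes histone H3 lysine 9 (H3K9) methylation and reads it through heterochromatin protein 1 (HP1). Members were the rows of the RNA-Seq gene tables whose symbol was Setdb1, Trim28, Suv39h1, Suv39h2, Ehmt1, Ehmt2, Cbx1, Cbx3, Cbx5 or Atf7ip. These 10 symbols took 11 of the 26385 gene models in each table, because Atf7ip was listed as a pair of models. All 47 RNA-Seq libraries held a value for each of the 11. In the Morc1 line, an insertion of a tyrosinase transgene disrupts Morc1, a gene of the MORC ATPase family that is active in male germ cells. Sorted germ cells gave 20 libraries. Morc1 tg/+ (labelled het) animals gave 2 libraries at E16.5, 2 at E18.5, 3 at P2.5 and 4 at P10.5. Morc1 tg/tg (labelled KO) animals gave 2, 2, 2 and 3 at these ages. Cells at E16.5, E18.5 and P2.5 were sorted on an Oct4-IRES-Gfp reporter in a mixed background, whereas cells at P10.5 were sorted on low side scatter, high EPCAM and absence of MHC I. Whole testis gave 27 libraries. The Morc1 line gave at P10.5 1 +/+, 2 tg/+ and 3 tg/tg libraries with a further preliminary +/+ and tg/+ library, and at P14.5 3 tg/+ and 3 tg/tg. The Dnmt3l line gave 3 WT, 3 het and 3 KO libraries at P10.5, and the Miwi2 line 2 het and 2 KO. Each library came from a single animal, so the spread within a group holds differences between animals together with those of handling and library preparation.

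H3K9 methylation is a hallmark of silent chromatin, and it is laid down by several enzymes that differ in product and target. G9a and GLP, encoded by Ehmt2 and Ehmt1, act as a heterodimer that makes mono- and dimethylation mainly in euchromatin. SUV39H1 and SUV39H2 make trimethylation at pericentric repeats. SETDB1 trimethylates H3K9 at retrotransposons, where it is recruited by TRIM28 (KAP1), the corepressor of KRAB zinc finger proteins, and is stabilized in the nucleus by ATF7IP. The HP1 proteins, HP1beta (Cbx1), HP1gamma (Cbx3) and HP1alpha (Cbx5), bind methylated H3K9 through a chromodomain. In the male germ line, G9a and SUV39H enzymes are needed for meiosis, and TRIM28 for the upkeep of spermatogonia.

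Levels are RPKM (reads scaled by exon length and by the mapped reads of the library, made by the authors), and log2 fold changes come from the read counts by the quasi-likelihood test of edgeR, with p-values adjusted by Benjamini-Hochberg over all gene models tested and called under 0.05. All 11 members passed the filter on low counts in each of the 19 comparisons. Reads on genes ranged from 2413679 to 14918478 in sorted libraries and from 22509570 to 42137954 in testis libraries, and the lowest count of any member was 26 reads, for the second Atf7ip model. Morc1 checked the labels of its line. Its level was 36.1 to 52.9 RPKM in tg/+ and 8.29 to 11.2 in tg/tg cells at E16.5, and 6.29 to 10.2 RPKM in control and 2.06 to 2.41 in tg/tg testis at P10.5. Dnmt3l was 0.374 to 1.02 RPKM in its controls and 0.0371 to 0.0464 in its KO testis. Piwil4, the gene of MIWI2, went against the labels of that line. It was 6.65 and 7.01 RPKM in the libraries labelled Miwi2 het and 10.7 and 11.5 in the libraries labelled Miwi2 KO, so no direction is drawn from these labels. This transcript alone does not show whether the labels hold.

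The windows just upstream of 5 members are shown because these members changed between E16.5 and P2.5 in control cells, with Ehmt2 and Atf7ip falling and Cbx1, Suv39h1 and Ehmt1 rising. Cbx3 rose as well but is left out, since its window lies inside its gene model. The windows of Cbx5, which fell over the same interval, are not shown. Each is the 250 bases before a start site of RefSeq (GRCm38.p6), written 5′ to 3′ on the gene's strand, with coordinates of its exact match in NCBIM37 (mm9), the build of the gene tables. Capitals mark the GC box, GGGCGG or CCGCCC on the other strand.
Ehmt2, chr17:35035169-35035418, plus strand: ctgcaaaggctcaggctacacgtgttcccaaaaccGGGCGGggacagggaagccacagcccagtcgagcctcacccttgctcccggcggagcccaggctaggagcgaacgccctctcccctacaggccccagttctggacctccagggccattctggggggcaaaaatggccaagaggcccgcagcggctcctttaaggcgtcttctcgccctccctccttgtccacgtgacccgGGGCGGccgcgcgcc
Atf7ip, chr6:136467122-136467371, plus strand: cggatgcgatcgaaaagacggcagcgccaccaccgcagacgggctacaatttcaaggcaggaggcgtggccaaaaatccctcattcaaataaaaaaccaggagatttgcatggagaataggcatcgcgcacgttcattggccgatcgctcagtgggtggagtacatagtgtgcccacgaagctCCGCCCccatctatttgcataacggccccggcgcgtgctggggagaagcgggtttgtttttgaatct
Cbx1, chr11:96650199-96650448, plus strand: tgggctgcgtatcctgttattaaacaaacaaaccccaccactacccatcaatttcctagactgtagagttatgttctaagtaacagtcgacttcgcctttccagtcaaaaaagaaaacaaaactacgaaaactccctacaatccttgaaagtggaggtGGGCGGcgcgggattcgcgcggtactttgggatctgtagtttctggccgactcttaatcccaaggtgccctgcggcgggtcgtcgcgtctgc
Suv39h1, chrX:7651887-7652136, minus strand: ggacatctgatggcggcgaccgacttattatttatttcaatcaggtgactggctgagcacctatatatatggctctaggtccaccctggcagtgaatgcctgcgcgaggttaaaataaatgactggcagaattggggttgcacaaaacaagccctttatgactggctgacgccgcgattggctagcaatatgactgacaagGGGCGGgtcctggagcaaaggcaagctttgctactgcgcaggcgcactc
Ehmt1, chr2:24775130-24775379, minus strand: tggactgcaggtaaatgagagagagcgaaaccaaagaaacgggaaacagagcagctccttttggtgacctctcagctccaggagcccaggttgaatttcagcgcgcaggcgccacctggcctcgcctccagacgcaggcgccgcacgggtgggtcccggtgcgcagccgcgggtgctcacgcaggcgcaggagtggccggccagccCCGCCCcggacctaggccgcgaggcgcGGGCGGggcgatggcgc
RefSeq gave 14 start sites for the 10 genes, and all 14 windows had exactly 1 match on their mm9 chromosome. A GC box was in 13 of the 14, against 32.7% of the 32851 windows of the whole table. The E2F motif TTTNNCGC, also searched on both strands, was in 3 of the 14 and in 4.28% of the table, and the ETS motif CCGGAAG was in 1 of the 14, that of Setdb1, and in 6.91% of the table. The member windows held 7 to 36 CG dinucleotides, against a median of 6 over all windows. In the 5 windows shown, a GC box stood upstream of genes that fell and of genes that rose alike. A motif match is a description of these letters only.

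Between E16.5 and P2.5, 8 of the 11 members changed in control germ cells. Over this interval 4 rose (Cbx1, Suv39h1, Cbx3 and Ehmt1), 4 fell (both Atf7ip models, Ehmt2 and Cbx5), and Setdb1, Trim28 and Suv39h2 were not called. The Cbx5 call was lost in 4 of 11 alternatives, among them library totals alone, the fit of these 2 stages only, and leaving out E16.5 tg/+ replicate 2 or P2.5 tg/+ replicate 1. Of the 16890 gene models tested, 16.7% rose and 22.6% fell. The median log2 fold change was 0.12 over the members and -0.23 over all gene models, and the latter was -0.05 when libraries were scaled by their totals alone. Proliferation markers rose along with these members, with 6 of 6 called higher and a summed level of 72.1 and 88.2 RPKM at E16.5 against 318 to 382 at P2.5. Markers of undifferentiated spermatogonia rose too, in 5 of 5 genes, from 12.8 and 17.2 RPKM to between 228 and 286, as did 3 of 4 differentiating markers. Of other lists, 4 of 6 germ cell markers fell and 1 rose, of 5 prospermatogonia markers 2 fell and 1 rose, of 7 meiosis markers 2 rose and 1 fell, 2 of 6 peritubular markers fell, and of 7 Sertoli markers 2 fell and 1 rose. No gene of either list was at 0 in all libraries of a group, and the part of these shifts in the member values was not tested. In bulk samples such as these, fewer cells of a type and less RNA per cell cannot be told apart.

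**Figure D1:**
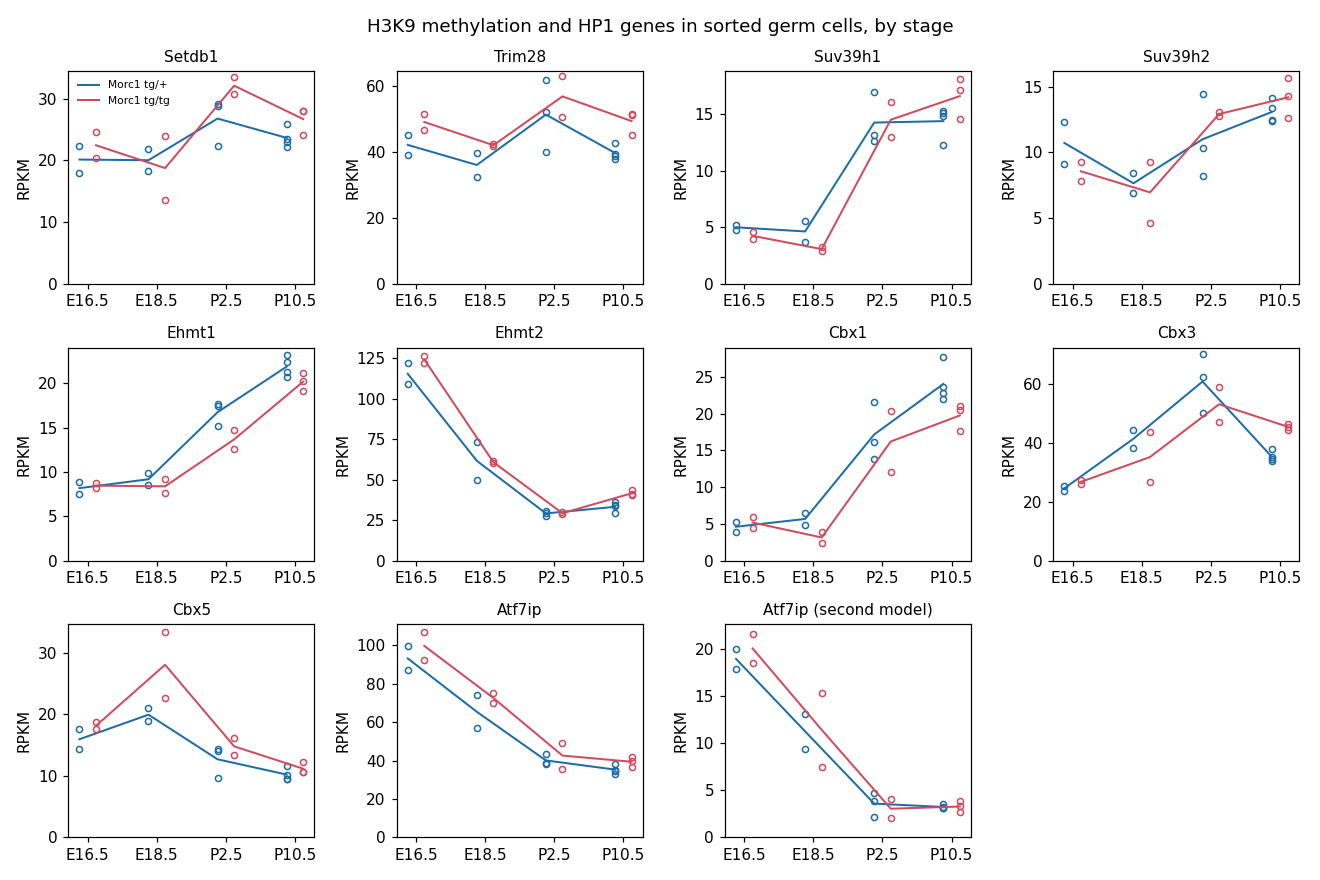
Each panel plots the RPKM of 1 gene model (y axis) against stage (x axis) in sorted germ cells, with 1 open circle per library and lines through the group means, in blue for Morc1 tg/+ and in red for Morc1 tg/tg. Ehmt2 and Atf7ip descend from E16.5 to P2.5 while Suv39h1, Ehmt1 and Cbx1 climb.

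The genes of the G9a and GLP pair went opposite ways. Ehmt2 (chr17:35035414-35050997, plus strand) stood at 109 and 122 RPKM at E16.5, then 73.2 and 50.1 at E18.5, 29.6, 27.4 and 30.3 at P2.5, and 36.0, 29.2, 33.6 and 34.0 at P10.5. Its levels at the 3 earlier stages did not overlap. The fall from E16.5 to P2.5 was 4.44-fold (log2 -2.15 ± 0.12 SE, edgeR adjusted p = 2.79e-09) and took place over both intervals, by 1.87-fold from E16.5 to E18.5 and by 2.38-fold from E18.5 to P2.5. Ehmt1 (chr2:24646289-24775129, minus strand) was low before birth, with 7.53 and 8.80 RPKM at E16.5, then 9.83 and 8.51 at E18.5. It then reached 17.6, 15.2 and 17.4 RPKM at P2.5 and 20.6 to 23.2 at P10.5. The rise from E16.5 to P2.5 was 1.83-fold (log2 0.87 ± 0.12 SE, edgeR adjusted p = 4.08e-05), and a further 1.59-fold rise followed from P2.5 to P10.5. Within a library the ratio of Ehmt2 to Ehmt1, which does not depend on how libraries are scaled, was therefore 14.2 ± 0.426 (SD, n = 2) at E16.5, 1.74 ± 0.0634 (SD, n = 3) at P2.5 and 1.52 ± 0.0800 (SD, n = 4) at P10.5. These comparisons between stages share their libraries, and stage, sorting scheme and background cannot be told apart between P2.5 and P10.5.

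The SUV39H genes moved unequally. Suv39h1 (chrX:7638297-7651886, minus strand) was 4.80 and 5.21 RPKM at E16.5, then 5.56 and 3.71 at E18.5, followed by 12.7, 13.2 and 17.0 at P2.5 and 12.3 to 15.3 at P10.5. All postnatal libraries lay above all fetal ones. The step fell between E18.5 and P2.5, at 2.74-fold (log2 1.45 ± 0.20 SE, edgeR adjusted p = 4.15e-05). Suv39h2 (chr2:3373087-3392303, minus strand), known for its expression in adult testis, stayed between 6.89 and 14.4 RPKM in control cells at all 4 stages. With all libraries fitted it was called in only 1 interval, a 1.45-fold rise from P2.5 to P10.5 (edgeR adjusted p = 0.015). That rise was not called without P2.5 tg/+ replicate 1 or replicate 2. At least 1 fit with a library left out called Suv39h2 from E18.5 to P2.5 as well. Of its exon bases 8.1% are shared with Dclre1c on the opposite strand, and counting was by HTSeq with its defaults, which count by strand. The sources used here do not say whether the library kits mark strand, and without such marks reads from the pair cannot be told apart there. The ratio of Suv39h1 to Suv39h2 was 0.475 ± 0.0731 (SD, n = 2) at E16.5 and 1.33 ± 0.184 (SD, n = 3) at P2.5. At P10.5 it was 1.11 ± 0.138 (SD, n = 4), and in 1 of these libraries, at 0.922, Suv39h2 was the higher.

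Among the genes of the SETDB1 pathway, the cofactor moved, while the enzyme and its recruiter were not called in the fits to all libraries. Setdb1 (chr3:95127447-95161124, minus strand) lay between 17.9 and 29.1 RPKM in control germ cells over the 4 stages, and the E16.5 and P2.5 ranges met at 22.4. Trim28 (chr7:13609501-13616384, plus strand) lay between 32.3 and 61.9 RPKM. With all libraries fitted, neither was called in any interval between stages, and their log2 changes from E16.5 to P2.5 were 0.25 and 0.12. From E18.5 to P2.5 the control ranges did not meet, at 18.2 to 21.8 against 22.4 to 29.1 RPKM for Setdb1. For Trim28 they were 32.3 to 39.8 against 40.0 to 61.9 RPKM. Over that interval at least 1 fit with a library left out called both genes, so the lack of a call was not steady. Atf7ip (chr6:136467372-136555898, plus strand) was instead 87.0 and 99.4 RPKM at E16.5, then 74.0 and 56.8 at E18.5, then 38.6, 38.3 and 43.3 at P2.5. This 2.61-fold fall (log2 -1.38 ± 0.10 SE, edgeR adjusted p = 3.79e-08) left 33.1 to 38.4 RPKM at P10.5. The ratio of Atf7ip to Setdb1 was 4.65 ± 0.292 (SD, n = 2) at E16.5 and 1.51 ± 0.202 (SD, n = 3) at P2.5.

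The second Atf7ip model (chr6:136556350-136559373, plus strand) is a single exon that begins 451 bases beyond the end of the first on the same strand. The span of both models together is 92002 bases, and the RefSeq gene Atf7ip is 92062 bases long, so the RefSeq gene is about as long as both combined. Its level fell further than that of the first model, from 17.9 and 20.1 RPKM at E16.5 to 2.21, 4.71 and 3.87 at P2.5, which is 5.78-fold (edgeR adjusted p = 1.1e-06). The first model held 4.90 ± 0.0628 (SD, n = 2) times the RPKM of the second at E16.5. This was 12.3 ± 4.79 (SD, n = 3) times at P2.5 and 10.9 ± 1.08 (SD, n = 4) times at P10.5. In P10.5 whole testis of the Morc1 line, this ratio was between 1.66 and 1.84 in the 3 control libraries, and 1.91 and 1.85 in the preliminary +/+ and tg/+ libraries. The sorted and testis libraries were made with different kits, so kit and tissue cannot be told apart in that difference.

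Among the HP1 genes Cbx3 stayed the highest, while Cbx1 had passed Cbx5 by P10.5. Cbx1 (chr11:96650441-96669954, plus strand) was the lowest of the 3 before birth, with 3.93 and 5.28 RPKM at E16.5, then 6.53 and 4.80 at E18.5. It was 21.6, 13.8 and 16.1 RPKM at P2.5 and 22.1 to 27.7 at P10.5, with the E16.5 to P2.5 rise at 3.32-fold (log2 1.73 ± 0.22 SE, edgeR adjusted p = 1.32e-05). Cbx3 (chr6:51420359-51433703, plus strand), the most abundant of the 3 in all 11 control libraries of sorted cells, peaked at P2.5. Its values were 23.8 and 25.3 RPKM at E16.5, then 44.4 and 38.4 at E18.5, 50.2, 62.3 and 70.0 at P2.5, and 33.7 to 37.9 at P10.5. Each of the 3 steps was called, as a 1.7-fold rise, a 1.29-fold rise and a 1.41-fold fall, although the middle one (edgeR adjusted p = 0.0429) was lost in 8 of 11 alternatives, among them the loss of either E18.5 tg/+ replicate or of P2.5 tg/+ replicate 2 or 3. Cbx5 (chr15:103021975-103070247, minus strand) fell 1.78-fold from 20.9 and 18.9 RPKM at E18.5 to 9.70, 14.3 and 14.0 at P2.5 (edgeR adjusted p = 0.000263). As a share of the summed HP1 RPKM, Cbx1 was 10.2% ± 1.14 (SD, n = 2) at E16.5, 19.3% ± 6.30 (SD, n = 3) at P2.5 and 34.5% ± 2.02 (SD, n = 4) at P10.5. At these stages Cbx5 was 35.3% ± 1.61, 13.9% ± 1.97 and 14.6% ± 1.03. Stage, sorting scheme and background cannot be told apart between P2.5 and P10.5. HP1 genes have processed copies elsewhere in the genome, and reads that fit several places were left out by the authors, so their levels relative to other genes are uncertain.

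**Figure D2:**
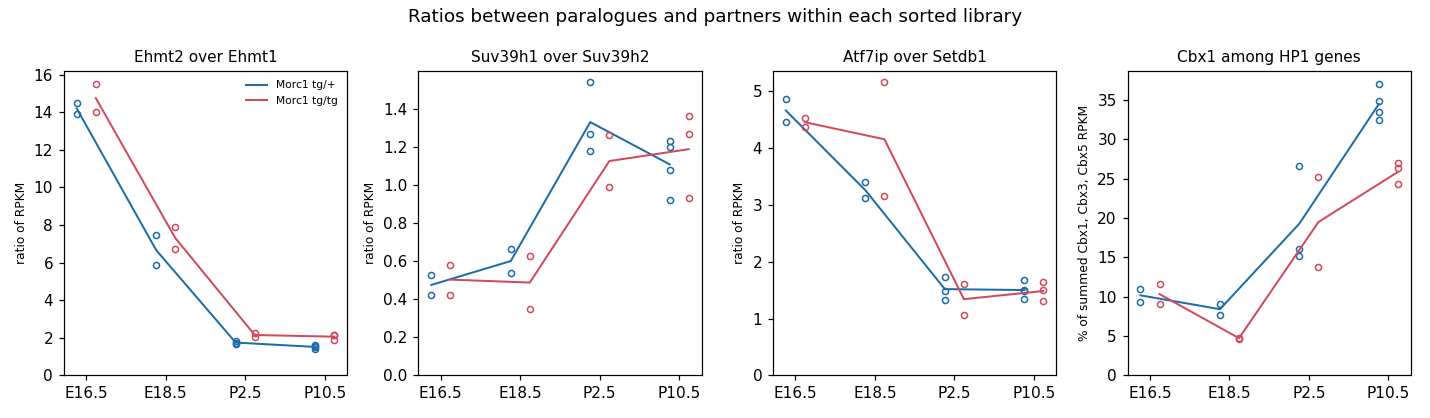
The panels plot ratios of RPKM within each sorted library (y axis; the last panel in % of the summed RPKM of Cbx1, Cbx3 and Cbx5) against stage (x axis), with 1 circle per library and lines through the means for Morc1 tg/+ (blue) and tg/tg (red). The Ehmt2 to Ehmt1 ratio drops from about 14.2 at E16.5 to 1.74 at P2.5 in tg/+ cells, and the Cbx1 share is lower in all 3 tg/tg libraries than in all 4 tg/+ libraries at P10.5.

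By interval, 3 members changed from E16.5 to E18.5 (Cbx3 rose, Ehmt2 and Atf7ip fell), where 18.7% of all gene models changed in either direction. From E18.5 to P2.5 4 rose and 4 fell, against 18.1% and 21.0% of gene models. From P2.5 to P10.5 4 rose (Cbx1, Ehmt1, Suv39h2 and Ehmt2) and Cbx3 fell, against 13.4% and 14.2%. Markers moved as well. From E16.5 to E18.5, 4 of 5 undifferentiated and 2 of 7 meiosis markers rose, 2 of 6 proliferation markers fell, and of 6 germ cell markers 4 fell and 1 rose. From E18.5 to P2.5, 6 of 6 proliferation, 5 of 5 undifferentiated and 2 of 4 differentiating markers rose. Over that interval 3 of 6 peritubular and 2 of 4 endothelial markers fell, and of 7 Sertoli markers 3 fell and 1 rose. Of 7 meiosis markers 2 rose and 1 fell, and of 6 germ cell and 5 prospermatogonia markers 1 each rose and 1 each fell. Of 5 Leydig and 3 blood markers 1 each fell. From P2.5 to P10.5, of the differentiating markers 3 of 4 rose, of the meiosis markers 4 of 7 rose and 1 fell, and of the Sertoli markers 4 of 7 rose. Meanwhile 4 of 5 undifferentiated, 5 of 6 germ cell and 2 of 4 endothelial markers fell, as did 2 of 5 macrophage entries, which hold Emr1 under 2 names. Their part was not tested. After its long fall Ehmt2 rose 1.39-fold from P2.5 to P10.5 by the fit (edgeR adjusted p = 0.00221). By RPKM the groups overlapped, at 27.4 to 30.3 and 29.2 to 36.0. Reads on genes made up a smaller part of the mapped reads behind RPKM at P10.5 than at P2.5. The Atf7ip call from E16.5 to E18.5 was lost when only these 2 stages were fitted.

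Of 31 other genes of H3K9 methylation and HP1 binding, 16 rose and 5 fell from E16.5 to P2.5 in control cells, where 16.7% of all gene models rose and 22.6% fell. Their median log2 fold change was 0.36, against -0.23 over all gene models. Uhrf1, which binds H3K9 methylation and hemimethylated DNA, rose 23.3-fold from 2.80 and 2.92 RPKM to between 65.5 and 86.3. Chaf1b, of the histone chaperone CAF-1 that binds HP1, rose 9.44-fold, and Pphln1, of the HUSH complex, rose 7.3-fold. Mphosph8, the chromodomain subunit of the HUSH complex, fell 2.64-fold, and Hdac2, a histone deacetylase, fell 3.08-fold. Mecom, a PR domain gene, had 49 and 80 reads at E16.5 and none in the 3 libraries at P2.5. Among 11 H3K9 demethylase genes none rose and 6 fell, led by Phf8 (3.88-fold), Kdm3a (3.22-fold) and Kdm4a (3.11-fold). The median of the demethylases was -0.69 on the log2 scale.

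Likeness of pattern was measured as Pearson's r of log2(RPKM + 1) over the 20 sorted libraries among 12870 gene models with a mean of at least 1 RPKM, as a description, since libraries of a stage share that stage. For Cbx1, whose group means spanned the widest range of the members (2.61 on the log2 scale), the most alike were Ckap2l (0.977), Nsf (0.975) and Abca2 (0.974). Among those most like Suv39h1 were Tipin (0.983) and 4632411B12Rik (0.98). For the second Atf7ip model they were D630003M21Rik (0.976), 2410089E03Rik (0.973) and Sncaip (0.972).

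The next question was whether the members differ between Morc1 tg/tg and tg/+ germ cells. At E16.5 none of the 11 was called, against 0.421% of gene models, at E18.5 none against 0.0416%, and at P2.5 none against 0.0486%. At an unadjusted p under 0.05 there were 1, 1 and 0 members. DESeq2 called 0, 1 (Cbx5) and 0. The shares of all gene models at that unadjusted threshold and by DESeq2 are not given. The E16.5 member under that unadjusted threshold was Suv39h2, at 7.82 and 9.28 RPKM in tg/tg and 9.12 and 12.3 in tg/+ cells (log2 -0.40 ± 0.14 SE), with overlap. Ehmt2 was 127 and 122 RPKM and Atf7ip 107 and 92.3 in tg/tg cells of that age. The widest gap was at E18.5, where Cbx1 was 3.88 and 2.42 RPKM in tg/tg and 6.53 and 4.80 in tg/+ cells. Its log2 change was -0.75 ± 0.59 SE. Morc1 itself, 4.98-fold lower in tg/tg cells at E18.5, was not called there (edgeR adjusted p = 0.139), so at this stage large differences could be missed too. Cbx5 at E18.5 was 33.4 and 22.7 RPKM in tg/tg and 20.9 and 18.9 in tg/+ (log2 0.59 ± 0.17 SE, edgeR adjusted p = 0.65), with no overlap.

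At P10.5, 3 members were higher in tg/tg sorted cells (Trim28, Ehmt2 and Cbx3) and 1 was lower (Cbx1), against 6.43% of gene models higher and 5.79% lower. Cbx1 was 27.7, 22.8, 22.1 and 23.6 RPKM in tg/+ and 21.1, 20.6 and 17.7 in tg/tg cells. All tg/tg values lay below all tg/+ values, and the fall was 1.28-fold (log2 -0.36 ± 0.10 SE, edgeR adjusted p = 0.0125). Cbx3 went the other way, at 33.7 to 37.9 RPKM in tg/+ against 46.4, 45.4 and 44.5 in tg/tg, or 1.22-fold higher (edgeR adjusted p = 0.0254). Ehmt2 was 36.0, 29.2, 33.6 and 34.0 RPKM against 40.2, 43.5 and 41.0 (1.19-fold, edgeR adjusted p = 0.0298), and Trim28 was 37.9 to 42.8 against 45.2, 51.7 and 51.4 (1.18-fold, edgeR adjusted p = 0.0354). By RPKM none of these 4 pairs of groups overlapped, but the 4 genes were picked as called. The share of all gene models without overlap is not given. Reads on genes tended to make up a larger part of the mapped reads behind RPKM in tg/tg than in tg/+ libraries. By RPKM the 3 rises were therefore wider, and the Cbx1 fall narrower, than by the fit. The Cbx1 share of HP1 RPKM was 34.5% ± 2.02 (SD, n = 4) in tg/+ and 25.8% ± 1.43 (SD, n = 3) in tg/tg cells, and the Ehmt2 to Ehmt1 ratio was 1.52 ± 0.0800 and 2.06 ± 0.140.

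These P10.5 calls were fragile. None of the 4 was called without tg/+ replicate 1 or without tg/tg replicate 3, 1 remained without tg/+ replicate 3, and 2 remained without tg/+ replicate 4 or tg/tg replicate 2. With libraries scaled by their totals alone, Cbx1 stayed called and Trim28, Ehmt2 and Cbx3 did not. Cell type markers moved beside them. Of the undifferentiated spermatogonia markers, 4 of 5 were higher in tg/tg (summed 151 to 180 RPKM against 113 to 123), and of the differentiating markers, 3 of 4 were lower (75.4 to 92.5 against 119 to 144). Of 7 meiosis markers 4 were lower, and of 7 Sertoli markers 2 were lower (18.1 to 32.2 RPKM against 26.8 to 45.7). Of peritubular and of germ cell markers 2 of 6 each were higher. No gene of these lists was at 0 throughout a group, and their part in the member values was not tested. The tg/tg effect at P10.5 was not called different from that at E16.5 for any member (1.71% of gene models were). At an unadjusted p under 0.05 there were 3 members, with the share of all gene models not given, and DESeq2 called none.

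**Figure D3:**
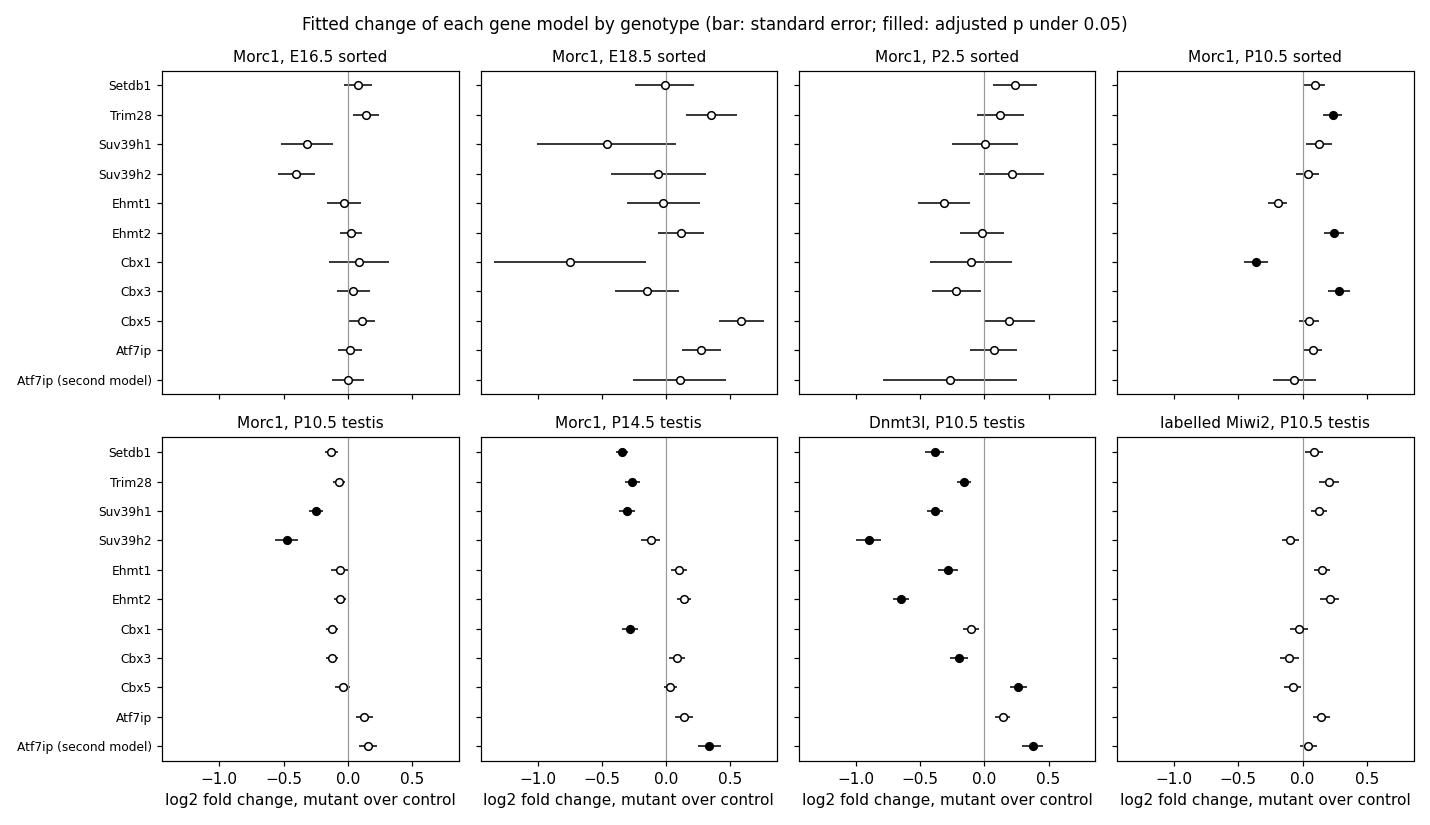
Each panel gives the fitted log2 fold change of the 11 gene models (x axis, mutant over control) in 1 comparison of genotypes, with bars for the standard error and filled points where the adjusted p was under 0.05. Filled points are absent from the 3 early stages of sorted cells and from the libraries labelled Miwi2, and most numerous in Dnmt3l testis, where 9 of 11 are filled.

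Whole testis holds germ cells among Sertoli, Leydig, peritubular and other somatic cells. In P10.5 testis, tg/tg against tg/+ and +/+ libraries, no member was higher and 2 were lower (Suv39h1 and Suv39h2), against 6.08% of gene models higher and 9.26% lower. Suv39h2 was 6.50, 7.22 and 6.33 RPKM in controls and 5.42, 4.40 and 4.53 in tg/tg (1.39-fold lower, log2 -0.47 ± 0.09 SE, edgeR adjusted p = 0.00542), without overlap. Suv39h1 was 19.7, 18.3 and 19.8 RPKM against 16.3, 16.3 and 15.6 (1.19-fold lower, edgeR adjusted p = 0.00953), and this call was lost without tg/+ replicate 3 or tg/tg replicate 3. In the sorted cells of the same age, these genes had log2 changes of 0.13 and 0.04 and were not called. Conversely, Trim28, Ehmt2 and Cbx3, higher in the tg/tg sorted cells, had log2 changes of -0.07, -0.06 and -0.12 in testis. Cbx1, lower in the sorted cells, had -0.12 in testis, and none of the 4 was called there. Germ cell markers were lower in the same testes, in 5 of 6 genes (210 to 237 RPKM against 312 to 319), as were 7 of 7 meiosis markers and 5 of 6 proliferation markers (152 to 165 RPKM against 207 to 231) and 4 of 4 differentiating markers. Of somatic markers, 3 of 5 macrophage entries, 2 of 4 endothelial, 2 of 6 peritubular and 2 of 7 Sertoli genes were higher. The macrophage entries hold 1 gene, Emr1, under 2 names. The part of these cell types in the fall was not tested.

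At P14.5, 4 members were lower in tg/tg testis (Setdb1, Trim28, Suv39h1 and Cbx1) and 1 was higher (the second Atf7ip model), against 20.1% of gene models lower and 14.8% higher. Setdb1 was 42.0, 41.2 and 42.1 RPKM in tg/+ and 33.3, 32.3 and 32.5 in tg/tg testis, a gap far wider than the spread in either group (1.27-fold, log2 -0.34 ± 0.05 SE, edgeR adjusted p = 0.000969). Trim28, its recruiter, was 147, 142 and 148 RPKM against 118, 124 and 121 (1.2-fold lower, edgeR adjusted p = 0.00756). Cbx1 was 46.4, 45.4 and 49.1 against 38.2, 40.1 and 37.0 RPKM (1.21-fold lower, edgeR adjusted p = 0.00892), and Suv39h1 was 22.9, 25.5 and 23.9 against 19.2, 20.2 and 18.9 (1.23-fold lower, edgeR adjusted p = 0.00652). For these 4 genes, picked as called, the groups did not overlap, and the share of all gene models without overlap is not given. The second Atf7ip model was 12.7, 13.7 and 13.5 RPKM in tg/+ and 15.0, 18.6 and 16.6 in tg/tg (1.26-fold higher, edgeR adjusted p = 0.0214), a call that was lost without tg/+ replicate 1 or tg/tg replicate 3. In these testes 7 of 7 meiosis markers were lower (99.5 to 120 RPKM against 370 to 529), 5 of 6 germ cell, 3 of 4 differentiating and 4 of 6 proliferation markers were lower, and 7 of 7 Sertoli markers were higher (1043 to 1201 RPKM against 844 to 917). Their part was not tested. No member had an effect called different between P14.5 and P10.5 by edgeR, where 8.22% of gene models did. However, 6 members had an unadjusted p under 0.05 and DESeq2 called 3 (Setdb1, Ehmt2 and Cbx3). The shares of all gene models for these further counts are not given.

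Among the comparisons of genotype, the most members were called in Dnmt3l KO testis. DNMT3L is the cofactor of de novo DNA methylation in germ cells. Of the 11, 7 were lower (Setdb1, Trim28, Suv39h1, Suv39h2, Ehmt1, Ehmt2 and Cbx3) and 2 higher (Cbx5 and the second Atf7ip model), while 29.0% of gene models were lower and 24.9% higher. The median log2 fold change was -0.197 over the members and -0.000919 over all gene models. Suv39h2 was 3.78, 4.06 and 4.71 RPKM in KO testis, while the 6 controls had a lowest value of 7.36, a median of 7.80 and a highest value of 9.72 (1.86-fold lower, log2 -0.90 ± 0.10 SE, edgeR adjusted p = 1.55e-05). Ehmt2 was 65.2, 57.6 and 63.4 RPKM against 95.4 to 104, median 102 (1.56-fold lower, log2 -0.65 ± 0.06 SE, edgeR adjusted p = 5.99e-06). The KO libraries of both genes lay far below every control library.

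The smaller falls in Dnmt3l KO testis also touched the SETDB1 pathway. Setdb1 was 22.3, 21.9 and 26.2 RPKM against 29.8 to 35.1, median 30.8 (1.31-fold lower, edgeR adjusted p = 0.000696), and Suv39h1 was 15.2, 16.6 and 16.2 against 19.9 to 22.8, median 21.8 (1.3-fold lower, edgeR adjusted p = 0.000207). Ehmt1 fell 1.22-fold, Cbx3 1.15-fold and Trim28 1.12-fold. The Ehmt1 call was lost without KO replicate 1 and with het controls alone. Those of Cbx3 and Trim28 were lost under 7 and 8 of 16 alternatives, the loss of KO replicate 3 among both. Cbx5 was higher, at 21.7, 24.9 and 23.5 RPKM against 18.3 to 22.7, median 20.0 (1.2-fold, edgeR adjusted p = 0.00468), with 1 KO library inside the control range. The second Atf7ip model was 18.8, 20.1 and 20.7 RPKM against 13.2 to 18.3 (1.3-fold, edgeR adjusted p = 0.00261). Germ cell markers were lower in 6 of 6 genes (162 to 189 RPKM against 419 to 529), meiosis markers in 7 of 7 and differentiating markers in 4 of 4. Proliferation markers were lower in 5 of 6 genes and higher in 1 (169 to 203 RPKM against 238 to 311) and prospermatogonia markers in 4 of 5, while of 5 undifferentiated markers 3 were higher and 1 lower, and 4 of 7 Sertoli, 3 of 6 peritubular and 2 of 4 endothelial markers were higher. The part of these cell types was not tested.

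**Figure D4:**
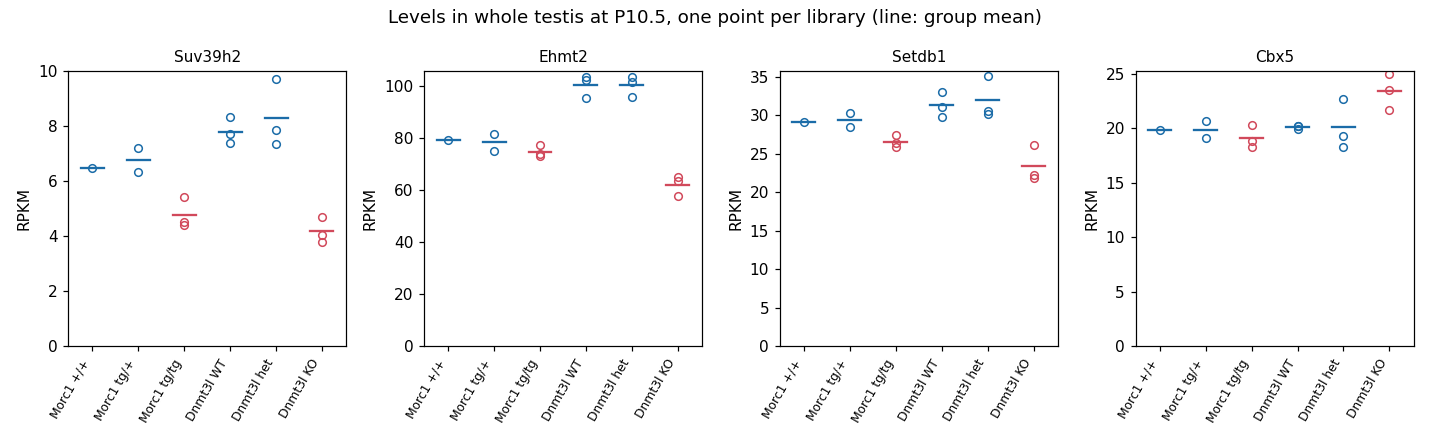
The panels plot RPKM (y axis) of Suv39h2, Ehmt2, Setdb1 and Cbx5 in P10.5 whole testis of the Morc1 and Dnmt3l lines (x axis), with 1 circle per library, a line at each group mean, controls in blue and mutants in red. Dnmt3l KO libraries sit below all their controls for Suv39h2, Ehmt2 and Setdb1, while Ehmt2 in Morc1 tg/tg testis (73.0 to 77.3 RPKM) overlaps its own controls (75.2 to 81.5).

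The Morc1 and Dnmt3l lines have controls of their own, so the difference between their effects at P10.5 was tested directly. Among the members only Ehmt2 and Cbx5 were called. For Ehmt2 the log2 change was -0.06 (not called) in the Morc1 line and -0.65 in the Dnmt3l line. That difference was 0.54 ± 0.08 SE (edgeR adjusted p = 0.000348). For Cbx5 the changes were -0.04 (not called) and 0.26, a difference of -0.35 ± 0.09 SE (edgeR adjusted p = 0.0161). Of all gene models, 9.45% had a positive and 8.14% a negative difference (Morc1 minus Dnmt3l) that was called. The Cbx5 difference was not called without Dnmt3l KO replicate 2, and without Dnmt3l KO replicate 3 Setdb1 and Suv39h2 were called as well. Marker effects differed as well. The difference was positive for 6 of 6 germ cell, 4 of 4 differentiating, 4 of 5 prospermatogonia and 2 of 7 meiosis markers. It was negative for 4 of 7 Sertoli markers, and of 5 undifferentiated markers negative for 2 and positive for 1. A positive difference can be a smaller fall: the median log2 change of germ cell markers was -0.388 in the Morc1 line and -1.37 in the Dnmt3l line. Their part was not tested.

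Other comparisons of genotype gave no calls in the fits without a replicate block. Between the libraries labelled Miwi2 KO and het, none of the 11 was called (1.23% of gene models were), with a largest log2 change of 0.21, for Ehmt2. An unadjusted p under 0.05 was found for 4 members, with the share of all gene models not given, and DESeq2 called none. Between Morc1 tg/+ and +/+ testis none was called (0.0131% of gene models), and between Dnmt3l het and WT none (0.00651%), with no member at an unadjusted p under 0.05 in either and none by DESeq2. The largest absolute log2 changes there were 0.08 and 0.11. Morc1 itself was 1.62-fold lower in tg/+ than in +/+ testis.

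Partner genes of the pathway were called in the same mutants. In P10.5 tg/tg testis 9 of the 31 were lower and none higher (9.26% and 6.08% of all gene models), led by Setdb2 (1.49-fold lower), a SETDB1 relative, and Uhrf1 (1.37-fold lower). In P14.5 tg/tg testis 9 were lower and 2 higher (20.1% and 14.8% of all), led by Atf7ip2 (1.67-fold lower), the paralogue of Atf7ip, and of 11 demethylase genes 2 were lower and 3 higher, with Kdm4d 4.65-fold lower. In Dnmt3l KO testis 13 partners were lower and none higher (29.0% and 24.9% of all), led by Atf7ip2 (2.22-fold lower) and Setdb2 (1.9-fold lower). In P10.5 sorted tg/tg cells, where 6.43% of all were higher and 5.79% lower, 3 partners were higher, led by Chaf1b (1.43-fold), and 1, the H4K20 methyltransferase gene Suv420h2, was lower (1.59-fold).

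The last comparisons set control samples of different age or tissue side by side. From P10.5 to P14.5 in tg/+ testis, 2 members rose (Setdb1 and Suv39h1) and 6 fell, against 25.4% and 26.0% of gene models. Meiosis markers rose in 7 of 7 genes, germ cell markers in 5 of 6 and differentiating markers in 3 of 4. Peritubular markers fell in 5 of 6, undifferentiated markers in 3 of 5 (1 rose), endothelial markers in 2 of 4 and Sertoli markers in 5 of 7 (2 rose). Their part was not tested. Setdb1 went from 30.4 and 28.5 RPKM to 42.0, 41.2 and 42.1 (1.4-fold, log2 0.49 ± 0.06 SE, edgeR adjusted p = 0.000181), the widest member change. Cbx3 fell 1.31-fold and Cbx5 1.26-fold. The falls of Ehmt1, Ehmt2 and both Atf7ip models were 1.12- to 1.2-fold, and all 4 calls were lost without P10.5 tg/+ replicate 2. Over all alternatives the Ehmt2 call was lost in 7 of 11, that of Ehmt1 in 6, and those of the Atf7ip models in 2 and 3. The fit without that replicate has a lone P10.5 library, which is assumed to vary like the P14.5 group, and gave log2 changes of -0.14 for Ehmt1, -0.20 for Ehmt2, -0.13 for Atf7ip and -0.20 for its second model.

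Sorted tg/+ cells and tg/+ testis at P10.5 differed in 10 of the 11 members, with 5 higher and 5 lower in sorted cells by the fit to counts, against 37.2% and 40.5% of gene models. For 3 of the 5 higher members (Ehmt1, Setdb1 and Suv39h1) the direction by RPKM was the opposite of that by the fit. Suv39h2 was 12.4 to 14.1 RPKM in sorted cells and 7.22 and 6.33 in testis (3.08-fold higher by the fit to counts, log2 1.62 ± 0.10 SE, edgeR adjusted p = 9.32e-10). Atf7ip was 1.99-fold higher by its first model and 3.04-fold lower by its second. By the fit Ehmt1 was 1.34-fold, Setdb1 1.29-fold and Suv39h1 1.21-fold higher, but by RPKM all 3 were lower in sorted cells, with means of 21.9 against 26.1, 23.6 against 29.4 and 14.4 against 19.1. Cbx5 was 1.22-fold lower by the fit. Cbx1 was not called (absolute log2 change 0.153), although by RPKM it was 22.1 to 27.7 in sorted cells and 42.6 and 43.0 in testis. Leaving out a testis library leaves a lone one, assumed to vary like the sorted group. The Suv39h1 call was lost without either testis library, and that of Cbx5 without testis tg/+ replicate 2. Trim28 was 37.9 to 42.8 RPKM in sorted cells and 130 and 135 in testis (2.08-fold lower by the fit, edgeR adjusted p = 1.13e-09), and Cbx3 was 1.7-fold and Ehmt2 1.47-fold lower. The RPKM divisor of the authors included reads outside genes, and reads on genes made up a smaller part of it in sorted than in testis libraries, so that levels in sorted cells relative to testis are lower by RPKM than by the fit. Sertoli markers fell in 7 of 7 genes (26.8 to 45.7 RPKM in sorted cells against 1072 and 1078 in testis), and germ cell markers were higher in 5 of 6 and lower in 1. Tissue and library kit cannot be told apart.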

How the data were processed

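The authors deposited 1 table per RNA-Seq library with read counts per gene model of mm9 and RPKM values, made from uniquely placed reads. The submitters' processing notes name Bowtie, SAMtools and HTSeq, and per the methods HTSeq ran with its defaults, which count by strand. Sorted cells were prepared with the Ovation Human FFPE kit and depletion of murine ribosomal RNA and testes with TruSeq V2. The sources used here do not say whether these kits mark strand. Of the members, Setdb1 shares 0.934% of its exon bases with Lass2 on the opposite strand and Suv39h2 shares 8.1% with Dclre1c. Libraries were grouped by genotype, stage and tissue from the labels. The 4 small RNA libraries were not used.

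Differences were fitted in R 4.3.3 with edgeR 4.0.16 (TMM scaling, filterByExpr, quasi-likelihood test) on the deposited counts, with Benjamini-Hochberg adjustment over all gene models tested, and checked with DESeq2 1.42.0. Some of the fits were also run on simulated counts, with planted changes larger than any called for a member between genotypes. Those runs do not bear on changes as small as these. RPKM was used for levels and ratios only. Control stages of sorted cells were fitted together. Other alternatives were size factors, library totals, no filter, a replicate block and leaving out each library. In P10.5 testis, +/+ and tg/+ libraries of the Morc1 line, and WT and het libraries of the Dnmt3l line, were pooled as controls. The preliminary +/+ and tg/+ libraries entered only the comparison of these genotypes, with a batch term, beside alternatives. Replicates differed beyond sampling noise in all 38 pairs (chi-square per gene model 4.6 to 34.5). Members, 31 partner genes, 11 demethylase genes and marker lists were chosen with earlier results of these data known. All members are named, and of the lists up to 3 genes with the largest rise or fall among those called. For pattern likeness, up to 3 genes are named for each of the 3 members with the widest range, and 1 such gene is not reported here. Fam208a, Meiob and Adgre1 are listed as D14Abb1e, 4930528F23Rik and Emr1 in the tables. The macrophage list held both Adgre1 and Emr1, so this 1 gene made 2 of its 5 entries.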

Additional observations from a re-analysis of the deposited data

Results flagged for a closer look

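Among the 4 tg/+ libraries of sorted P10.5 germ cells, Suv39h1 was 12.3 RPKM in replicate 4 against 14.9 to 15.3 in the others, a gap wide enough to set it apart by Dixon's test. It was 1 of 11 such tests, of which chance sets apart about 1 in 20.

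For Ehmt2 and Cbx5 the change in P10.5 whole testis was called different between the Morc1 and Dnmt3l lines. Cell type marker effects differed between these lines too, and their part was not tested. The Cbx5 difference was not called without Dnmt3l KO replicate 2. The difference between the effects (Morc1 minus Dnmt3l, edgeR interaction term) was 0.54 on the log2 scale for Ehmt2 and -0.35 for Cbx5.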

How the results depend on the processing

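Of the alternatives run on counts of called members, 210 gave a count within 1.5 times the reported one and 21 did not. The 210 include fits that gave 0 where 0 was reported, which do not show how steady a call is. In these fits to read counts no called member's change turned its sign. By RPKM, Ehmt1, Setdb1 and Suv39h1 did between sorted cells and testis. DESeq2 called 1 member at E18.5 and 3 in the comparison of the Morc1 effect at P14.5 with that at P10.5, where edgeR called none. Library totals alone gave 2 calls in sorted P10.5 cells, Cbx1 and the newly called Ehmt1. Leaving out single libraries gave 0 to 3 calls in sorted P10.5 cells, 1 to 3 in Morc1 P10.5 testis, 4 to 8 from P10.5 to P14.5, 1 to 4 for the Morc1 effect against the Dnmt3l effect and 0 to 1 for the Morc1 effect at P14.5 against P10.5. The cause was not tested.

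Replicate numbers were not taken to pair the libraries, since no comparison with 3 or more pairs had every correlation of deviations above 0.1. The Miwi2 comparison has only 2 pairs, with a correlation of 0.32, so pairing was not judged there. In no comparison with 3 or more pairs did every library correlate best with its own number. These were 0 of 6 in Morc1 P10.5 testis, 1 of 9 in Dnmt3l testis, 4 of 6 in sorted P10.5 cells and 8 of 10 over the control stages. With the replicate block, 1 member was called in Morc1 P10.5 testis, without Suv39h1, 5 between the libraries labelled Miwi2 (Trim28, Suv39h1, Ehmt1, Ehmt2 and Atf7ip), where 4503 gene models were called, and 3 in sorted P10.5 cells, without Trim28. For the comparison of Morc1 tg/+ with +/+ testis alone: No paired analysis was possible because these groups share fewer than 2 numbers.

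Counts of all gene models called also moved. Against 6 at E18.5 the other settings gave 6 to 296, against 7 at P2.5 8 to 28, against 70 at E16.5 72 to 180, against 2326 in Morc1 P10.5 testis 1171 to 2643, against 197 for the Miwi2 labels 153 to 4503, against 2 for Morc1 tg/+ and +/+ 2 to 119, against 3151 from E16.5 to E18.5 1220 to 3875, against 6600 from E18.5 to P2.5 3557 to 7215, against 2797 for the Morc1 effect against the Dnmt3l effect 1653 to 3166, and against 290 for the Morc1 effect at P10.5 against E16.5 292 to 507. Leaving out single libraries gave 0 to 190 at E18.5, 0 to 70 at P2.5, 74 to 171 at E16.5, 922 to 2352 in Morc1 P10.5 testis, 340 to 952 for the Miwi2 labels, 2 to 441 for Morc1 tg/+ and +/+, 1731 to 4795 from E16.5 to E18.5, 4300 to 6544 from E16.5 to P2.5 (reported 6638), 3517 to 5001 in P14.5 testis (5323) 130 to 312 for the Morc1 effect at P10.5 against E16.5, 1753 to 4021 for the Morc1 effect against the Dnmt3l effect, and 772 to 1746 for the Morc1 effect at P14.5 against P10.5 (1287). Where a group of 2 loses a library, the lone one is assumed to vary like the other groups.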
